A study of Mus musculus with 2 samples.

Results

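The 7 genes described here make up the core of the type 2 cytokine and Gata3 program: the cytokines Il4, Il5 and Il13, the growth factor Areg (amphiregulin), the receptor Il1rl1 (ST2, which binds interleukin-33) and the transcription factors Gata3 and Rora. They were taken by name from the gene list, 7 of 30905 genes, and followed by their raw UMI counts (unique molecular identifiers, each standing for 1 captured transcript) in innate lymphoid, regulatory T, helper T and mast cells. All 7 were found. Areg is listed there under the symbol Mcub and was matched by its Ensembl identifier. Type 2 cytokines come from group 2 innate lymphoid cells (ILC2), T helper 2 cells, mast cells and basophils. ILC2 sense the alarmins interleukin-33, interleukin-25 and TSLP released by damaged epithelium, need GATA3 and RORα to develop, and answer with interleukin-5, which supports eosinophils, and interleukin-13, which acts on epithelium and macrophages. Tissue regulatory T cells of the gut can carry GATA3 and ST2 as well and make amphiregulin, a ligand of the epidermal growth factor receptor.

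CD45+ leukocytes from tissue labelled colorectal cancer of male C57BL/6 mice were measured by droplet single-cell RNA sequencing with 3′ V3 chemistry. All mice received 12 mg/kg azoxymethane (AOM), a colon carcinogen, at the start, and then went through 3 cycles of 7 days on 2.5% DSS (dextran sodium sulfate, an irritant that damages the gut lining) and 14 days on water. The ad libitum group fed freely, and the FMD group received a fasting-mimicking diet, both from cycle 2 on. For each diet, cells of 4 mice were pooled into 1 library. Both were treated as tumor libraries because their titles say so, although the extraction notes mention normal colon too. With 1 library per diet no test between diets was possible. The intervals given are exact 95% intervals that cover counting error only, and differences are between these 2 libraries.

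After filtering, 4851 ad libitum and 4583 FMD cells remained, with 32854802 and 31445240 UMIs and medians of 5501 and 5727 UMIs per cell. The libraries shared 7 barcodes, of which 4 were kept in both. Cells were clustered without the 7 genes, so their levels did not shape the classes. The 20 clusters gave 12 named classes. Levels are in CPM, a gene's UMIs per 1000000 of the class's UMIs outside immunoglobulin and mitochondrial genes. B-like cells, which should lack the cytokines, set the background of stray RNA: 2818 ad libitum and 2503 FMD cells held 2 and 3 UMIs of Gata3, 2 and 4 of Il4, 0 and 2 of Il5, 1 and 2 of Il13, 2 and 8 of Il1rl1, 17 and 17 of Areg, and 36 and 48 of Rora. Each was at or below 3.81 CPM. These cells had medians of 4948 and 5097 UMIs, against 7815 and 8014 in ILC2-like cells.

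The 3 cytokine genes lie in 1 cluster on mouse chromosome 11 (GRCm38, GENCODE vM21): Il4 at chr11:53602982-53618669 and Il13 at chr11:53631324-53634702 on the minus strand, and Il5 at chr11:53720794-53725106 on the plus strand. Il4 and Il13 start 16033 bases apart, and Il5 starts 86092 bases from Il13, with the DNA repair gene Rad50 in between. The other members lie apart: Gata3 at chr2:9857078-9890034, Rora at chr9:68653786-69388246, Il1rl1 at chr1:40429570-40465415 and Areg at chr5:91139599-91148432. GATA factors bind DNA at short words around GATA. Therefore the 250 bases before each RefSeq start (GRCm38.p6) were searched on both strands for 4 words: A or T, then GATA, then A or G. The promoters of the cytokine cluster and of Il1rl1 are printed 5′ to 3′ on the gene's strand because these genes share the ILC2-like class as a site of high level, with the words in capitals, also where a word reads on the opposite strand. Windows are chr11:53720544-53720793 for Il5, chr11:53634703-53634952 for Il13, chr11:53618666-53618915 for Il4 and chr1:40429320-40429569 for the distal start of Il1rl1.
Il5: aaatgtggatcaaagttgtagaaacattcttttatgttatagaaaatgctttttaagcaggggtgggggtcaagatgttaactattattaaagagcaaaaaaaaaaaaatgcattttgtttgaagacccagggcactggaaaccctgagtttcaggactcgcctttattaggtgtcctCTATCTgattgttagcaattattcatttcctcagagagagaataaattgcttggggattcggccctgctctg
Il13: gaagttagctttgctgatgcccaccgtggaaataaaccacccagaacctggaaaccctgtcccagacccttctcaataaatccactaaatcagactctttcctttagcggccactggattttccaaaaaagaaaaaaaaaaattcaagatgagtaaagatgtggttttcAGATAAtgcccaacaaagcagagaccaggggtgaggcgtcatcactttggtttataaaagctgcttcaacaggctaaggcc
Il4: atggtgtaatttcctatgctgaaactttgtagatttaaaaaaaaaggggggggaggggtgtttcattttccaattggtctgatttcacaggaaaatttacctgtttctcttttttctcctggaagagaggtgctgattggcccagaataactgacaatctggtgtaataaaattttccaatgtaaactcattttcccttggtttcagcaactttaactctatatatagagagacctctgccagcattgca
Il1rl1: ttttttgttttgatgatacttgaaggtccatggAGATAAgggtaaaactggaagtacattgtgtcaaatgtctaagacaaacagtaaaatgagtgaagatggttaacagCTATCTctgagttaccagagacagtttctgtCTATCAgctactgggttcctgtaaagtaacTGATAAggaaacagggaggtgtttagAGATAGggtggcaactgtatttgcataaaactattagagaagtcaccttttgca
Il5 and Il13 had 1 word each, 72 and 81 bases before the start, Il1rl1 had 5 and this start of Il4 had none. Of the 9 promoter entries of the 7 genes, 6 held a word, which compares with 26.5% of all 32851 entries, and 1 held 2 or more, against 6.4%. The entries of Gata3 (which begins 11434 bases inside the annotated gene) and Areg held none, and Rora, a downstream start of Il4 and the proximal start of Il1rl1 held 1 each. A word is a match of letters and not a binding site.

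Summed over all kept cells, 6 of the 7 genes were higher in the FMD library and Areg was lower. Il5 summed to 45 UMIs under ad libitum feeding and to 343 under FMD (1.54 and 11.8 CPM), a 7.71-fold difference (log2 2.95, 2.50 to 3.43). Il13 had 126 and 405 UMIs (log2 1.70, 1.41 to 2.00), Il4 had 125 and 190 (0.62, 0.29 to 0.96) and Gata3 had 1164 and 1920 (0.74, 0.63 to 0.85). Rora had 7434 and 8748 (0.25, 0.21 to 0.30) and Il1rl1 had 570 and 732 (0.38, 0.22 to 0.54). Areg had 5788 and 3446 (-0.73, -0.79 to -0.67). These sums mix the number of cells of each class with the level per cell, which were therefore separated class by class.

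**Figure D1:**
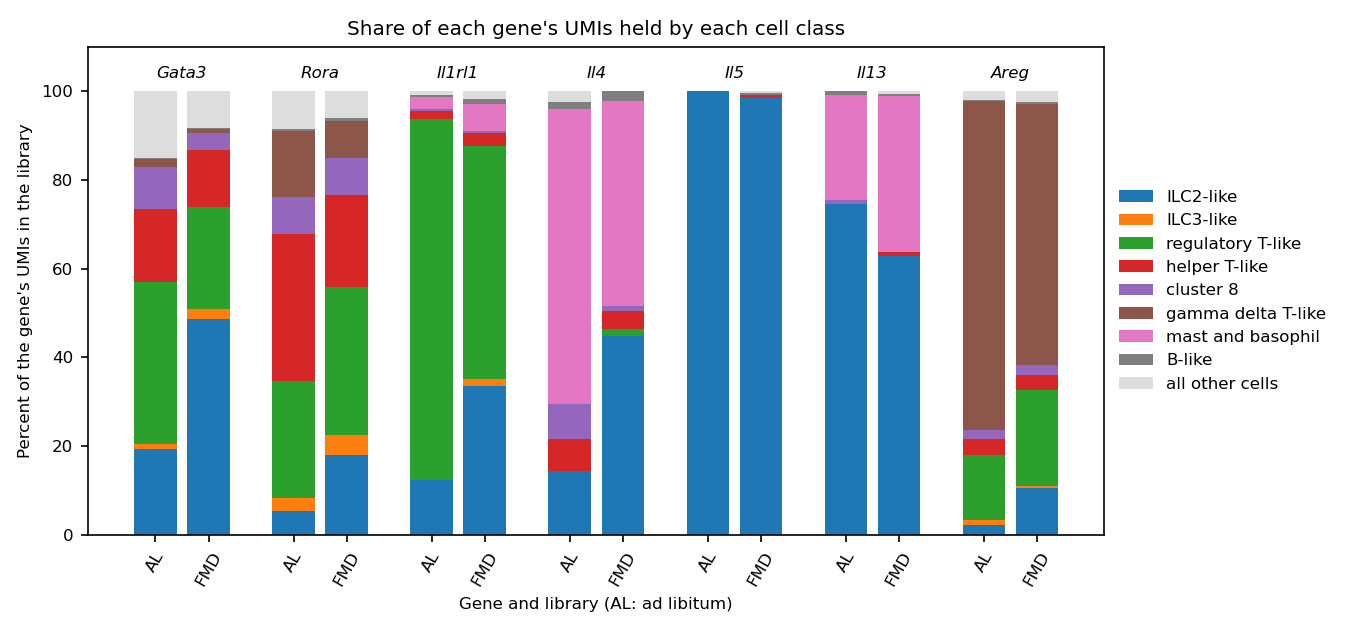
Percent of each gene's UMIs (y axis) held by each cell class, in the ad libitum (AL) and FMD libraries; each bar is 1 gene in 1 library and adds to 100%. ILC2-like cells held 100% and 98.5% of the Il5 UMIs, regulatory T-like cells held 81.2% and 52.5% of the Il1rl1 UMIs, and gamma delta T-like cells held 74.1% and 58.7% of the Areg UMIs.

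The genes were carried by different cells, as the plot of UMI shares shows. Il5 came from ILC2-like cells, which held 45 of its 45 UMIs under ad libitum feeding and 338 of 343 under FMD. Il13 was split between ILC2-like cells (74.6% and 63.0% of its UMIs) and a small mast and basophil cluster (23.8% and 35.3%). Il4 was split between the same clusters, with 14.4% and 44.7% in ILC2-like cells and 66.4% and 46.3% in the mast and basophil cluster. Gata3 moved from regulatory T-like cells as the largest holder (36.7%, with 19.3% in ILC2-like cells) in the ad libitum library to ILC2-like cells (48.7%, with 23.0% in regulatory T-like cells) in the FMD library. Rora, an orphan nuclear receptor gene used by several lymphoid lineages, was spread over helper T-like (33.1% and 20.8%), regulatory T-like (26.5% and 33.4%), gamma delta T-like (14.8% and 8.31%) and ILC2-like cells (5.42% and 17.9%).

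**Figure D2:**
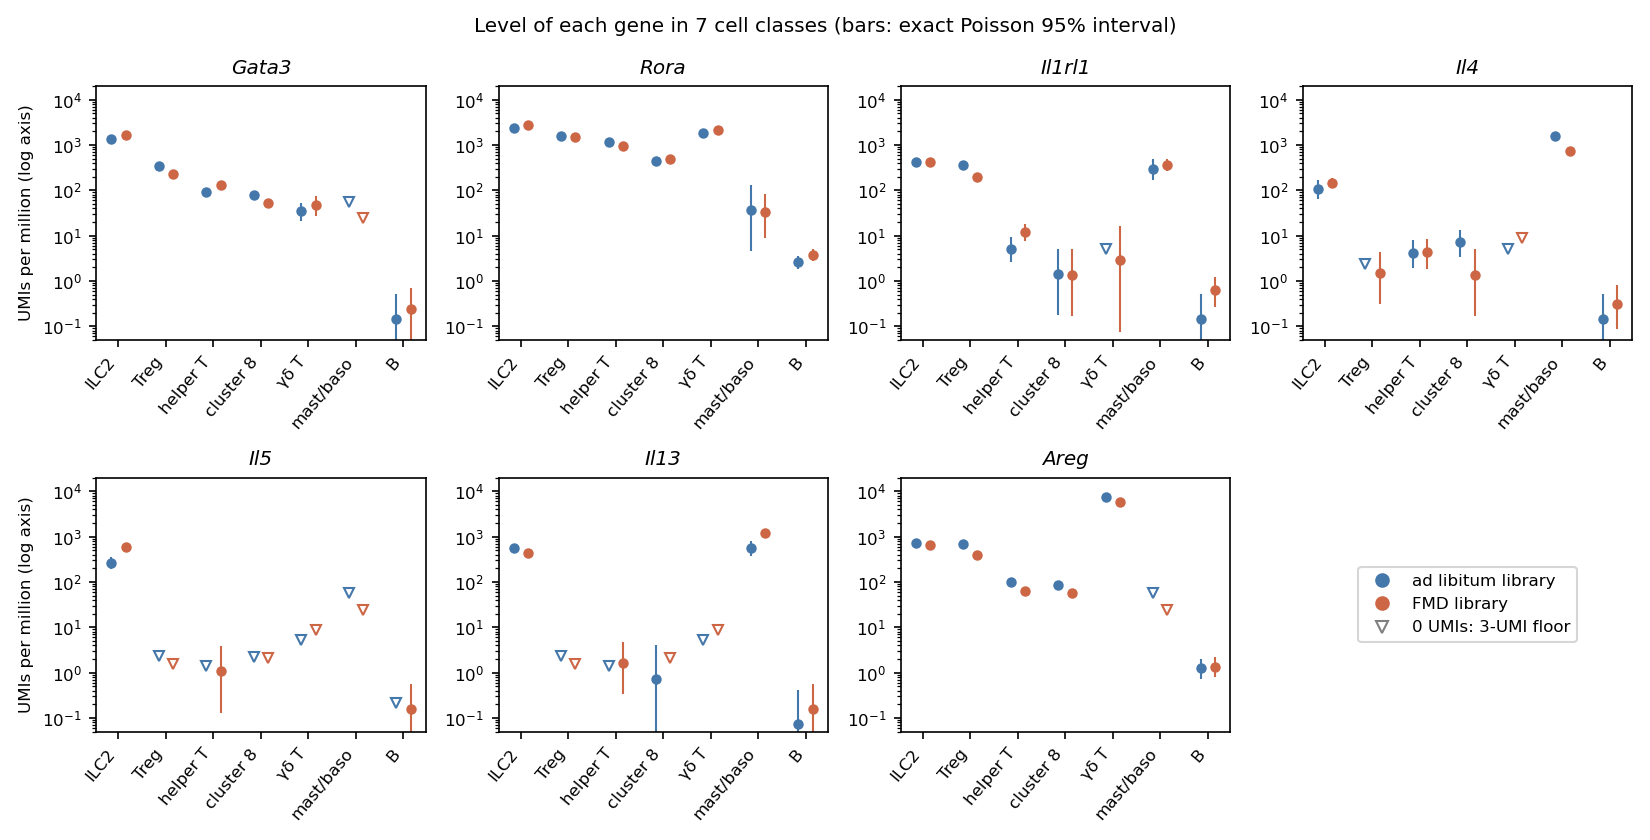
Level of each gene in CPM (log axis) in 7 cell classes, blue for the ad libitum and orange for the FMD library; bars are exact Poisson 95% intervals and open triangles mark 0 UMIs, drawn at the level that 3 UMIs would give. Il5 was at 265 and 588 CPM in ILC2-like cells and had at most 2 UMIs in any other class shown, and Areg was highest in gamma delta T-like cells, at 7358 and 5913 CPM.

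ILC2-like cells were the class with the highest Gata3, Rora, Il1rl1 and Il5 levels in both libraries, and there were more of them in the FMD library. They numbered 23 of the ad libitum and 78 of the FMD cells, 0.47% (0.30 to 0.71) and 1.70% (1.35 to 2.12) of kept cells, a 3.59-fold difference (2.23 to 5.99). These are shares of CD45+ cells collected from pooled tissue, so digestion, gradient and sort can set them. The cluster was led by Calca, Ccl1, Csf2, Rnf128 and Hes1, and held Il7r in 91.3% and 89.7% and Klrg1 in 69.6% and 75.6% of cells. Of 12 ILC2 markers outside the 7 genes, 9 (ad libitum) and 10 (FMD) were detected, with Nmur1 and Ptgdr2 at 0 in both. Cd3e was found in 4.3% and 6.4% of cells, and Foxp3, Trdc and Cpa3, which define regulatory T, gamma delta T and mast cells, in none. All 8 T cell markers were detected, with a summed level of 1196 and 1171 CPM, against 5239 and 5280 CPM in regulatory T-like cells.

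Gata3 had 225 UMIs in the 23 ad libitum cells and 934 in the 78 FMD cells, levels of 1326 CPM (1158 to 1511) and 1625 CPM (1523 to 1733). The median cell held 8 and 11 UMIs, the highest 25 and 45, and 22 of 23 and 75 of 78 cells held at least 1. The per-cell distributions overlapped over most of their range. The ratio was small (log2 0.29, 0.08 to 0.51) and came to -0.03 when each cell was given equal weight at 2000 UMIs. Rora was in every one of these cells, at 2375 and 2727 CPM (0.20, 0.04 to 0.36), with medians of 15 and 17 UMIs. Il1rl1 had 71 and 245 UMIs, 418 and 426 CPM (0.03, -0.36 to 0.43), in 20 of 23 and 56 of 78 cells. For these 3 genes the 3.59-fold difference in cell share was larger than any difference in level per cell.

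Il5 was the single member at least 2-fold apart per cell in this class. It had 45 UMIs in the 23 ad libitum cells and 338 in the 78 FMD cells, 265 CPM (193 to 355) and 588 CPM (527 to 654), a 2.22-fold difference (log2 1.15, 0.70 to 1.63). Of 3682 genes with at least 20 UMIs in this class, 9.48% were at least 2-fold apart, and among the 869 genes with at least 100 UMIs, as all 7 members had, 2.53% were. The share of cells with Il5 was nearly equal: 11 of 23 (47.8%) and 37 of 78 (47.4%), or 27.3% and 34.2% when cells were thinned to 2000 UMIs. Against this, 0.00% and 0.04% of thinned B-like cells held Il5. The difference lay in the cells with many UMIs. None of the ad libitum cells held 10 or more Il5 UMIs and the highest held 9, whereas 11 FMD cells (14.1%) held 10 or more, and these carried 73.7% of the Il5 UMIs. A single FMD cell held 93 of the 338. Without the highest cell of each library the log2 ratio was 0.94, and with each cell given equal weight it was 0.44.

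Il13, the cytokine that acts on goblet cells and macrophages, had 94 and 255 UMIs, 554 CPM (448 to 678) and 444 CPM (391 to 502). It was found in 11 of 23 and 27 of 78 cells. The ratio was -0.32 (-0.67 to 0.04), and it rested on 1 ad libitum cell with 49 of the 94 UMIs: without the highest cell of each library it was 0.22. Il4 had 18 and 85 UMIs, 106 and 148 CPM (0.48, -0.27 to 1.30), in 11 of 23 and 29 of 78 cells, and no ad libitum cell held more than 3. Areg had 123 and 367 UMIs, 725 and 639 CPM (-0.18, -0.48 to 0.12), in 18 of 23 and 54 of 78 cells. Of these, 58 ad libitum and 127 FMD UMIs lay in 1 cell each. Il4, Il13 and Areg had intervals that included no difference between the libraries.

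**Figure D3:**
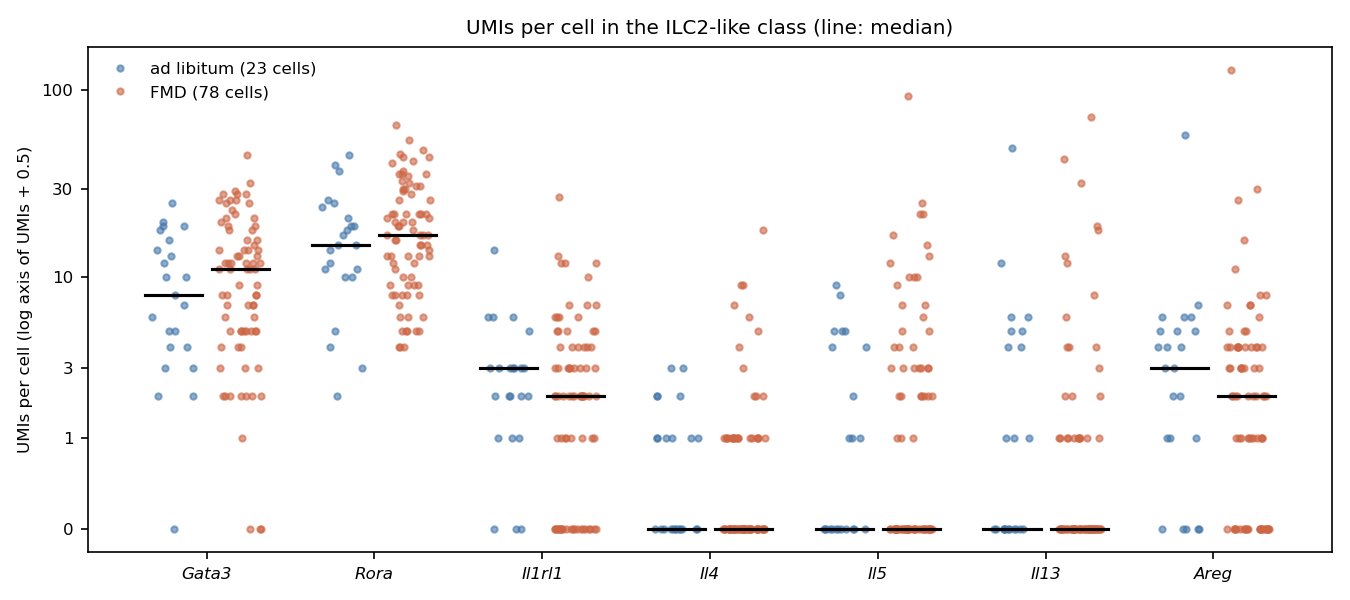
UMIs per cell (log axis of UMIs + 0.5) of the 7 genes in the 23 ad libitum (blue) and 78 FMD (orange) ILC2-like cells; each point is 1 cell and the line is the median. Gata3 and Rora were found in nearly all cells, with medians of 8 and 11 and of 15 and 17 UMIs, while the median for Il4, Il5 and Il13 was 0 and single cells held up to 93 Il5 and 72 Il13 UMIs.

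Cytokine UMIs were unevenly shared among ILC2-like cells. Cells with none of Il4, Il5 and Il13 made up 4 of 23 (ad libitum) and 25 of 78 (FMD), and cells with all 3 made up 3 of 23 and 11 of 78. In the FMD library, 22 of 37 cells with Il5 also held Il13 (59.5%), against 12.2% of the cells without Il5. In the ad libitum library the shares went the other way, with 5 of 11 (45.5%) against 6 of 12. Deeper cells hold more UMIs of every gene, and the part of depth in this overlap was not tested. Re-clustered alone, again without the 7 genes, the class gave 3 sub-clusters. The sub-cluster led by the chemokines Cxcl3 and Cxcl2 (11 and 25 cells) had Gata3 at 1604 and 2383 CPM and Il5 at 365 and 1140 CPM (log2 1.64, 1.09 to 2.25, and 1.27 without the highest cells). Its Il13 was at 790 and 1043 CPM (0.40, -0.01 to 0.83), a ratio that came to 1.71 without the highest cells, which held 49 and 72 UMIs. The largest sub-cluster (9 and 42 cells) had Il5 at 186 and 280 CPM and Il13 at 329 and 143 CPM. The smallest sub-cluster (3 and 11 cells) had Gata3 at 1312 and 1529 CPM and Il5 at 114 and 424 CPM. The chemokine-led sub-cluster was the highest of the 3 for both genes in each library, while the order of the other two differed between the genes in the ad libitum library. A panel of 8 immediate early genes (Fos, Jun, Egr1 and others), which digestion can induce, stood at 6471 and 5522 CPM in ILC2-like cells (log2 -0.23, -0.33 to -0.13), and its part in the cytokine levels was not tested.

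Other genes of the pathway in ILC2-like cells were read from lists of ligands, inducers, receptors, transcription factors and tissue regulatory T genes. Of all 3682 genes 5.62% were past 2-fold upward in the FMD library and 3.86% downward, the shares beside which the counts of these short lists stand. Of 5 ligands with at least 20 UMIs, 1 was at least 2-fold higher (Il5) and none lower, with a median log2 ratio of 0.09 against -0.02 for all 3682 genes. Csf2, which codes for the growth factor GM-CSF, was at 654 and 698 CPM. Of 11 receptors, 1 was at least 2-fold higher, Il17ra, a subunit of the interleukin-17 and interleukin-25 receptors, with 3 and 37 UMIs (log2 1.86, 0.21 to 4.21). None was 2-fold lower, and the median was 0.18. Il17rb, the partner subunit for interleukin-25, was at 295 and 157 CPM (-0.91, -1.43 to -0.38). The costimulatory receptor gene Icos was at 908 and 571 CPM (-0.67, -0.95 to -0.38). The interleukin-7 receptor gene Il7r was at 637 and 602 CPM, Il2rg at 424 and 480 CPM and Il2ra at 401 and 473 CPM. None of 12 transcription factors was 2-fold apart (median 0.11): Junb stood at 5263 and 6343 CPM, and Id2, needed by all innate lymphoid cells, at 1261 and 1310 CPM. Of 9 tissue regulatory T genes 1 was 2-fold higher, the costimulatory receptor gene Tnfrsf9, with 11 and 104 UMIs (1.48, 0.58 to 2.53). Its list had a median of 0.29. Of the genes that interleukin-4 and interleukin-13 induce in myeloid cells, Arg1 (22 and 56 UMIs, log2 -0.41) and Pdcd1lg2 (9 and 19 UMIs, -0.68) had enough UMIs. The alarmins and other inducers had too few UMIs to compare in this class.

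A second innate lymphoid cluster, ILC3-like and led by Il22, Ttn, Klrb1b and Cx3cl1, held 40 and 83 cells and no UMI of Il4, Il5 or Il13. Its cells were shallow (medians of 1797 and 1770 UMIs), with Cd3e in 17.5% and 12.0% of them, so a low level would not have been detectable: 3 UMIs stand for 21.7 and 10.1 CPM. Rora was high there (1550 and 1341 CPM), Gata3 had 12 and 42 UMIs, Il1rl1 0 and 12, and Areg 63 and 9, with 28 of the 63 in 1 cell. The Areg ratio was log2 -3.92 (-5.11 to -2.9), or -3.44 without the highest cells. In this class 12.1% of 3708 genes were at least 2-fold apart. Markers of other cells were found there too: all 8 regulatory T cell markers were detected (1724 and 1757 CPM in sum), with Foxp3 in 5.0% and 7.2% of cells. When both innate lymphoid groups were clustered together, a sub-cluster led by Tnfrsf4 and Il10, with Foxp3 among its leading genes, held 57 and 12 Areg UMIs in 25 and 39 cells, of which 1 and 3 were ILC2-like. The sub-cluster led by Il22 held 2 and 0. The part of those cells in the Areg difference was not tested.

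Regulatory T-like cells showed lower Gata3, Il1rl1 and Areg in the FMD library. They numbered 175 and 256 cells (3.61% and 5.59% of kept cells), with Foxp3, their defining factor, in 87.4% and 89.1% of them and at 530 and 523 CPM. Gata3 had 427 UMIs in 175 cells and 442 in 256 cells, 337 CPM (306 to 371) and 226 CPM (205 to 248), log2 -0.58 (-0.77 to -0.38). A single random thinning to 2000 UMIs per cell gave 0.04 (-0.35 to 0.43) from 94 and 142 UMIs, and the mean over draws gave -0.50. Il1rl1 had 463 and 384 UMIs, 365 CPM (333 to 400) and 196 CPM (177 to 217), log2 -0.90 (-1.10 to -0.70). It was found in 38.3% and 25.4% of cells. Areg had 853 and 749 UMIs, 673 CPM (629 to 720) and 383 CPM (356 to 411), log2 -0.81 (-0.96 to -0.67). Of the ad libitum Areg UMIs 173 came from 1 cell, and the ratio without the highest cells was -0.67. Rora did not follow, with 1552 and 1493 CPM (-0.06, -0.14 to 0.03). Il5 and Il13 had 0 UMIs in both libraries (3 UMIs stand for 2.37 and 1.53 CPM) and Il4 had 0 and 3.

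None of the 4 members with enough UMIs was 2-fold apart in this class, where 3.96% of 8173 genes were. Of 15 tissue regulatory T genes, which include Gata3, Il1rl1, Areg and Rora, 14 had enough UMIs. None was 2-fold higher and 2 were 2-fold lower, the chemokine receptor gene Ccr8 (27 and 13 UMIs, log2 -1.68) and the inhibitory receptor gene Tigit (23 and 15 UMIs, -1.24). The median was -0.49 against 0.03 for all genes. Ikzf2, the gene of Helios and a marker of thymus-derived regulatory T cells, was at 1121 and 630 CPM (-0.83, -0.94 to -0.72), whereas Il10 was at 271 and 490 CPM (0.85, 0.67 to 1.03). Il10 thus went the opposite way to Ikzf2, Gata3, Il1rl1 and Areg. Of 7 natural killer cell markers, 4 and 3 were detected in this class, at 290 and 701 CPM in sum, with the defining Ncr1 and Eomes at 0, and their part in these differences was not tested.

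**Figure D4:**
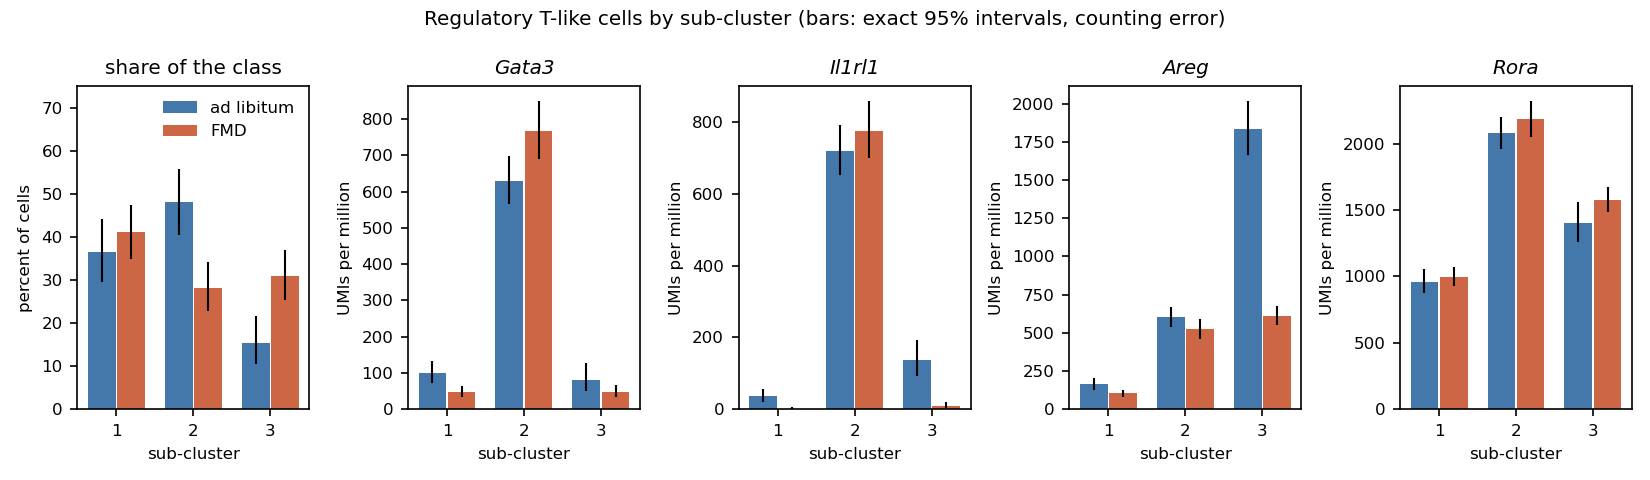
Share of cells (percent) and level of 4 genes (CPM) in 3 sub-clusters of regulatory T-like cells, blue for ad libitum and orange for FMD; bars are exact 95% intervals for counting error. Sub-cluster 2 made up 48.0% of ad libitum and 28.1% of FMD regulatory T-like cells, and its Gata3 and Il1rl1 levels were as high in the FMD library (767 and 776 CPM) as in the ad libitum library (629 and 720 CPM).

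The mix of regulatory T-like cells differed between the libraries, and so did levels within some kinds of cells. The parts of mix and level in the lower Gata3 and Il1rl1 were not separated by a test. Clustered alone without the 7 genes, the class split in 3. Sub-cluster 2, led by Penk, Dgat2 and Gzma and also by Ikzf2, held 84 of 175 ad libitum cells (48.0%, 40.4 to 55.7) and 72 of 256 FMD cells (28.1%, 22.7 to 34.1). Within it Gata3 was at 629 and 767 CPM (log2 0.29, 0.07 to 0.50), Il1rl1 at 720 and 776 CPM (0.11, -0.10 to 0.31) and Rora at 2079 and 2185 CPM (0.07, -0.05 to 0.19). Areg was at 602 and 523 CPM (-0.20, -0.44 to 0.03). Within this sub-cluster Gata3 and Il1rl1 were thus not lower in the FMD library. It held 363 of 427 Gata3 UMIs and 415 of 463 Il1rl1 UMIs of the class in the ad libitum library, and 373 of 442 and 377 of 384 in the FMD library.

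Sub-cluster 1, led by Rflnb, Gbp2b and Ifit1 (64 and 105 cells), had Gata3 at 98.9 and 46.6 CPM (log2 -1.09, -1.75 to -0.43) and Il1rl1 at 16 and 1 UMIs. Sub-cluster 3, led by Nkg7, Cxcl3 and Il17a, held 27 and 79 cells (15.4% and 30.9%). It had the highest Areg level of the 3 in both libraries and the widest gap, 1833 CPM (1665 to 2015) against 611 CPM (553 to 673), log2 -1.59, or -1.22 without the highest cells. Its Il1rl1 had 32 and 6 UMIs (log2 -3.94, -5.48 to -2.66). At other resolutions the sub-cluster with most Ikzf2 had log2 ratios of 0.30 and 0.16 when the class was split in 2, and 0.19 and 0.04 when it was split in 7. Areg moved with the split, at -0.75 and -0.21. In all other regulatory T-like cells Gata3 and Il1rl1 were lower in the FMD library at each of the 3 resolutions, with Gata3 ratios of -0.84, -0.98 and -0.65 and Il1rl1 ratios of -3.11, -3.87 and -1.88. When cells were divided by an Ikzf2 UMI, the cells with 1 made up 73.1% and 53.1% of the class, with Gata3 at 425 and 408 CPM, Il1rl1 at 479 and 395 CPM (-0.28, -0.48 to -0.08) and Areg at 438 and 442 CPM. In that split Il1rl1 was lower in the FMD library in both kinds of cells, and cells without Ikzf2 held none of it there. In cells without Ikzf2, Areg was at 1351 and 324 CPM (-2.06, -2.27 to -1.85). In that split the lower Areg lay in cells without Ikzf2. Gata3 and Il1rl1 also shared cells. Il1rl1 was found in 54.9% and 50.5% of regulatory T-like cells with Gata3, and in 15.1% and 6.2% of those without. Areg differed less, with 69.6% and 52.3% of cells with Gata3 and 46.6% and 40.0% of those without. Sub-cluster 3 held 432 and 413 Areg UMIs but only 19 and 32 Gata3 UMIs. The part of depth in this overlap was not tested.

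Helper T-like cells held little of the type 2 cytokines. They numbered 274 and 229 cells and were led by Ccl20, Cd40lg, Tnfsf11 and Il17f, the last a cytokine of T helper 17 cells. Il4 had 9 UMIs in 4 cells and 8 UMIs in 4 cells. Il5 had 0 and 2 UMIs and Il13 0 and 3, each in 1 FMD cell. Gata3 had 192 and 247 UMIs, 89.9 CPM (77.6 to 104) and 132 CPM (116 to 149), log2 0.55 (0.27 to 0.83). Its share of cells with a UMI was 29.9% and 36.7%, or 14.2% and 13.5% after thinning, and the ratio was 0.34 over repeated thinning draws and -0.12 (-0.76 to 0.51) in a single draw. With the marker gate it was 0.20 (-0.07 to 0.46). The higher Gata3 level in helper T-like cells thus depends on the processing. Rora was at 1153 and 969 CPM (-0.25, -0.34 to -0.16). Areg had 212 and 115 UMIs, 99.3 and 61.4 CPM (-0.69, -1.03 to -0.36), in 33 and 22 cells. Il1rl1 had 11 and 23 UMIs and was the 1 of 4 members past 2-fold (1.25, 0.16 to 2.44), where 3.48% of 8476 genes were. However, 15 of the 23 lay in 1 cell and the ratio without the highest cells was 0.39.

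A cluster of Cd3e+ Cd4+ cells led by Izumo1r, Sh2d1a and Tnfsf8 (198 and 210 cells, not named) carried Il4 in 10 and 2 UMIs, from 5 and 2 cells. Its Gata3 was at 79.5 and 51.6 CPM (110 and 75 UMIs, log2 -0.63, -1.07 to -0.19), Rora at 448 and 502 CPM and Areg at 86.0 and 55.7 CPM (-0.63, -1.05 to -0.21). CD8 T-like cells (244 and 178) had Gata3 at 60.9 and 53.5 CPM and Rora at 258 and 237 CPM. None of these T cell classes reached the Gata3 level of regulatory T-like cells.

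In macrophage or dendritic-like cells (106 and 143) Rora had 20 and 84 UMIs (log2 1.45, 0.73 to 2.23), and was the 1 of 2 members past 2-fold where 7.03% of 8311 genes were. Of the 84, 29 lay in 1 cell, and the ratio was 1.09 without the highest cells. Areg had 76 and 70 UMIs there (-0.74), or 0.32 without the highest cells, 1 of which held 49.

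Most amphiregulin transcripts came from gamma delta T-like cells, a class of 70 ad libitum and 46 FMD cells with Trdc in 95.7% and 97.8% of cells and led by Trdc, Il17a and Cd163l1. Areg had 4287 and 2024 UMIs, 7358 CPM (7139 to 7581) and 5913 CPM (5658 to 6176), log2 -0.32 (-0.39 to -0.24). Levels differed greatly between cells: 24 of 70 and 21 of 46 held none, and 36 of 70 and 19 of 46 held 10 or more. The latter carried 99.5% and 99.4% of the UMIs. The median cell held 12.5 and 1.0 UMIs and the highest 391 and 378. The lower Areg total of the FMD library thus went with fewer gamma delta T-like cells (1.44% and 1.00% of kept cells, ratio 0.70, 0.47 to 1.02) and a lower level over the class. That level takes in the smaller share of cells with Areg, and the parts were not separated. However, the interval of the cell ratio includes 1. The shares with Areg, 65.7% (53.4 to 76.7) and 54.4% (39.0 to 69.1), have intervals that overlap. Rora was found in every gamma delta T-like cell, at 1883 and 2124 CPM (0.17, 0.04 to 0.31). Gata3 had 20 and 16 UMIs, and Il4, Il5 and Il13 had 0. None of 3 members was 2-fold apart here, where 6.08% of 5497 genes were.

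The mast and basophil cluster held 8 ad libitum and 16 FMD cells and had the highest Il4 levels in both libraries. It was found by mast cell markers (11 of 12 detected in each library, 12560 and 20460 CPM in sum), but all 8 basophil markers were detected too, and it held 2 kinds of cells. The basophil genes Mcpt8, Prss34, Cd200r3 and Itga2b outnumbered the mast cell protease genes Mcpt1, Mcpt2, Mcpt4, Cma1, Tpsb2 and Tpsab1 in 6 of 8 and 12 of 16 cells. All Il13 UMIs, 30 under ad libitum feeding and 143 under FMD, lay in those cells. Among them, 1 FMD cell with 26 and 1 with 24 Il13 UMIs held only 3 and 1 basophil gene UMIs. Both had no mast cell protease UMI, so their kind rests on few counts. Of the Il4 UMIs, 82 of 83 and 64 of 88 lay in the cells with more basophil gene UMIs. The 2 and 3 cells richer in mast cell proteases held 1 and 15 Il4 UMIs and no Il13, and 1 FMD cell held neither set of genes and 9 Il4 UMIs. The cells labelled here as mast by their markers were therefore for the most part cells with basophil genes, and these carried most of the cytokine UMIs.

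Il4 was at 1545 CPM (1230 to 1915) in the ad libitum and 720 CPM (577 to 887) in the FMD cells, log2 -1.10 (-1.55 to -0.65). A single ad libitum cell held 56 of the 83 UMIs, and the ratio was -0.18 (-0.86 to 0.54) without the highest cells. Il13 was at 558 CPM (377 to 797) and 1170 CPM (986 to 1378), log2 1.07 (0.49 to 1.69), or 1.25 without the highest cells, with 5 of 8 and 9 of 16 cells holding it. Both genes were past 2-fold among the 3 members with enough UMIs, in a cluster where 24.8% of 1232 genes were. Cells chosen by mast cell markers one by one (6 and 12) gave 0.03 (-0.83 to 0.96) for Il4 and 0.43 (-0.56 to 1.54) for Il13, so neither was then past 2-fold. Il1rl1 had 16 and 44 UMIs, 298 and 360 CPM (0.27, -0.58 to 1.20). Of the ad libitum UMIs 12 lay in 1 cell, and the ratio was 2.05 (0.57 to 4.01) without the highest cells. Gata3, Il5 and Areg had 0 UMIs and Rora 2 and 4. The immediate early genes stood at 6346 and 3918 CPM here (log2 -0.70, -0.90 to -0.49), and their part in the cytokine ratios was not tested.

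**Figure D5:**
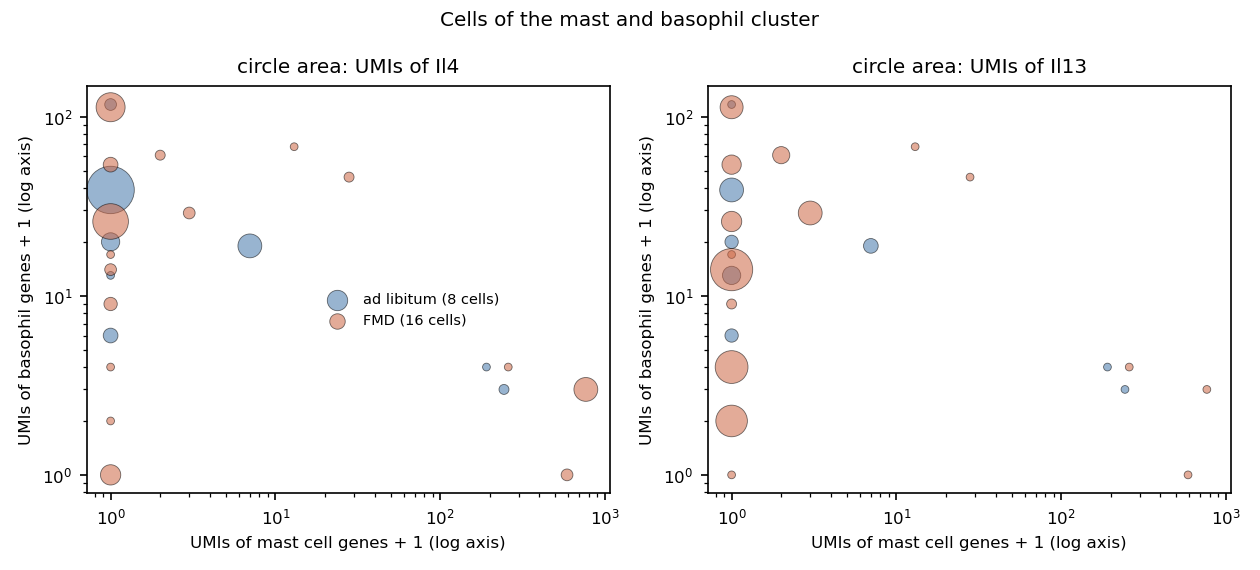
Each circle is 1 cell of the mast and basophil cluster, placed by its UMIs of 6 mast cell protease genes (x axis, log of UMIs + 1) and of 4 basophil genes (y axis, log of UMIs + 1), with its area set by its UMIs of Il4 (left) or Il13 (right); blue marks the 8 ad libitum and orange the 16 FMD cells. The cells with Il13 have 6 or fewer mast cell gene UMIs, and 1 ad libitum cell with 56 Il4 UMIs stands out.

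Il4, Il5 and Il13, neighbours on the chromosome, were thus not carried by the same cells in the same ratio. ILC2-like cells held all 3. The mast and basophil cluster held Il4 at a higher level than ILC2-like cells in both libraries, and Il13 at 558 against 554 CPM (ad libitum) and 1170 against 444 CPM (FMD). It held no Il5 UMI, where 3 UMIs would stand for 55.8 and 24.5 CPM.

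Genes with the most similar pattern were sought by Pearson correlation of log2(CPM + 10) over 21 points, each a named class in 1 library, where it had 30 cells or more. The points share libraries and depth, and the values are descriptions. Gata3 was closest to Tnfrsf18 (r = 0.927), Ptpn13 (0.915) and Ctla2a (0.902), and Rora to Icos (0.975), Il2ra (0.974) and Cish (0.962). Il1rl1 was closest to Klrg1 (0.960), Ccr8 (0.919) and Grik5 (0.889). Areg was closest to Npnt (0.945), Adam12 (0.942) and Jcad (0.902), which came to 0.884, 0.881 and 0.837 without the gamma delta T-like points. Il4, Il5 and Il13 were closest to each other and to Ldhd (0.973 to 1.00). Most of these values rest on 1 point, the FMD ILC2-like cells. Without it Il4 came to 0.556 with Il5 and 0.503 with Il13, and the pairs with Ldhd to 0.304 to 0.405. Il5 with Il13 came to 0.949, but elsewhere among the points Il5 had at most 2 UMIs and Il13 at most 3. The ad libitum ILC2-like cells and the mast and basophil cluster, which held Il13 without Il5, had too few cells to be among the points.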

How the data were processed

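The authors deposited unnormalized counts (UMIs of each gene in each barcode), written by Cell Ranger 3.1.0 per the file headers. The submitters' processing notes also name GRCm38, Seurat 2.3.4 and CASAVA 1.8 without a role. The libraries held 6089 and 5877 barcodes, with at least 500 UMIs each.

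Cells with at least 200 genes and at most 20% mitochondrial UMIs were kept, which removed 475 and 661 ad libitum and 441 and 694 FMD barcodes. Scrublet marked 2 cells in each library, too few to have worked, so cells were also removed when 2 of 3 marker panels (B cell, T cell, macrophage or dendritic) each had at least 5 UMIs and 0.5 per 1000 UMIs (102 and 159 doublets in all). Both libraries were clustered together with scanpy 1.11.5 and leidenalg 0.10.2 (2000 variable genes without the 7 members, 30 components, 15 neighbors, resolution 1). Clusters were named from marker lists without the 7 members and left unnamed where no list led. Names were rebuilt here and may differ from the authors'. UMIs were summed per class and library. Ratios (log2, FMD divided by ad libitum) were computed with scipy 1.17.1 for genes with at least 20 UMIs over both libraries, with exact Poisson, binomial and conditional binomial intervals; a count of 0 is read against a floor of 3 UMIs. No p-value was computed. The intervals were tried on simulated counts drawn with counting error only. That simulation had no spread between cells or mice, so it could not show how well the intervals cover these data. Shares of cells with a UMI were also taken after thinning to 2000 UMIs per cell.

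The 7 genes and all lists were chosen with earlier results of these data known. The text names all 7 in the innate lymphoid, regulatory T, helper T and mast classes and wherever a class held at least 5% of a gene's UMIs. It also names the listed pathway genes at least 2-fold apart in ILC2-like and regulatory T-like cells, the highest 4 levels of a list in ILC2-like cells and the 3 most similar genes. In macrophage or dendritic-like cells this was done for the genes that interleukin-4 and interleukin-13 induce. Pathway genes past 2-fold in other lists or classes are not all named. Other pathway genes (Il17rb, Ikzf2, Il10) and the sub-clusters were chosen after their values were seen.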

Additional observations from a re-analysis of the deposited data

How the results depend on the processing

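No paired analysis was possible because each diet has 1 library. The 38 log2 ratios tallied were those of a gene in a class and those of a class's share of kept cells. Under other settings 275 values moved by less than counting error, 39 moved by more and 6 changed sign. A change of sign was counted only where the main interval did not include equality. Ratios with wider intervals that crossed, such as ILC2-like Il13, stand among the values that moved by less or by more. Of the shares of cells with a UMI, 90 values without thinning or with thinning to 1000 UMIs stayed within the main interval and 50 did not. The settings were other Leiden resolutions, the 7 genes among the variable genes, a marker gate per cell, at most 10% mitochondrial UMIs, no doublet removal, all UMIs as the scale, thinning and leaving out the highest cell. The mean over thinning draws, the sub-clusters, the split of the mast cluster and the immediate early genes were chosen after seeing the data. With 1 random draw of 2000 UMIs per cell, ILC2-like cells had Gata3 at -0.11, Rora at -0.01, Il1rl1 at 0.67, Il5 at 0.61 and Il13 at 0.46. Regulatory T-like Gata3 came to 0.04, helper T-like Gata3 to -0.12, Rora to -0.39 and Areg to -0.22, and mast Il13 to 2.88. The mean over draws, which gives each cell equal weight, gave ILC2-like Gata3 -0.03 and Il5 0.44, and mast Il13 1.85. It gave ILC2-like Rora 0.15, regulatory T-like Gata3 -0.50 and helper T-like Gata3 0.34. Without the highest cell of each library ILC2-like Il13 was 0.22, regulatory T-like Areg -0.67, mast Il4 -0.18 and mast Il1rl1 2.05. The marker gate (6 and 12 mast cells) gave regulatory T-like Rora 0.06, helper T-like Gata3 0.20 and Areg -1.13, and mast Il4 0.03 and Il13 0.43. Without doublet removal helper T-like Areg was -1.20. With at least 100 UMIs per gene, 22 genes were at least 2-fold apart in ILC2-like cells in place of 349, 24 in regulatory T-like (324), 34 in helper T-like (295), 9 in gamma delta T-like (334) and 27 in mast cells (306). Both the number of genes tested and the share past 2-fold were smaller there (869 genes and 2.53% in ILC2-like cells, 237 and 11.4% in the mast cluster). The ILC2-like class kept 21 to 24 ad libitum and 73 to 80 FMD cells under the settings that gave it. The marker gate pools both innate lymphoid groups, and no ILC3-like class was found at resolution 0.5. The cause of the other changes was not tested. Depth limits the cytokines most: 18 to 94 UMIs in 23 ad libitum cells carry the ILC2-like values, and with pooled mice and 1 library per diet the spread between mice is unknown.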

Other observations

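Macrophage or dendritic-like cells (106 ad libitum, 143 FMD) were read for 9 genes that interleukin-4 and interleukin-13 can induce in myeloid cells, of which 8 had enough UMIs. Mrc1, the mannose receptor gene, had 7 UMIs in 5 cells and 60 in 18 cells (log2 2.48). Arg1, the gene of arginase 1, had 22 and 90 UMIs (1.41), but 22 and 83 of them lay in 1 cell each. The chemokine gene Ccl24 had 0 and 104 UMIs, 103 of them in 1 cell. Chil3 had 116 and 48 UMIs (-1.89) and the chemokine gene Ccl17 95 and 33 (-2.15), with 50 and 58 of the ad libitum UMIs in 1 cell. With 3 genes at least 2-fold higher and 2 lower (over all 8311 genes 2.44% were higher and 4.58% lower), and a median of -0.26 against -0.03 for all genes, the list did not move in 1 direction.

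The alarmins that start the program were close to absent from these CD45+ cells. Il33 had 34 UMIs in the ad libitum library, 31 of them in 1 macrophage or dendritic-like cell, and 0 in the FMD library. Il25 had 2 and 0 UMIs and Tslp 1 and 1. Eosinophils, the cells that interleukin-5 supports, were not found as a class among the kept cells: Epx had 0 UMIs in both libraries and Siglecf 4 and 4. Every deposited barcode had at least 500 UMIs, so cells with fewer could not be seen. The tissue is therefore not shown to lack eosinophils. Il5ra, the gene of the interleukin-5 receptor, had 83 and 84 UMIs, of which 61 and 59 lay in B-like cells, and Prg2, an eosinophil granule gene, had 303 of 306 and 440 of 444 UMIs in plasma-like cells. Egfr, the gene of the amphiregulin receptor, had 7 and 4 UMIs.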
